A study of Mus musculus with 6 samples.

Results

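The 10 genes described here make and control the fibrin clot: the fibrinogen chain genes Fga, Fgb and Fgg, the clotting trigger gene F3, the thrombin receptor gene F2r, the plasminogen activator genes Plau and Plat with the receptor gene Plaur, and the protein C pathway genes Thbd and Procr. They were chosen by symbol, all 10 were among the 17933 genes of the expression table, and all 10 reached the level for testing. Whole kidneys of male wild-type (WT) C57BL/6 mice, 6 to 8 weeks old and 24 to 26 g, were compared at day 12. The stone group (3 samples) had received glyoxylic acid, a precursor of oxalate, into the peritoneum at 120 mg/kg daily for 12 days, which produces calcium oxalate crystals in the kidney. The control group (3 samples) had received saline in the same volume. Both groups are labelled WT, and kidneys were not divided into regions or cell types. The labels do not say that each sample came from a separate mouse, so the p-values reflect no more than how far these 6 samples vary, and that variation may be technical.

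Fibrinogen is a soluble plasma protein built from pairs of alpha, beta and gamma chains and is made mainly by hepatocytes. Tissue factor on the surface of cells starts the cascade that ends in thrombin, and thrombin cuts fibrinogen into fibrin and also activates the receptor PAR1. Thrombomodulin redirects thrombin toward protein C, and plasmin, made from plasminogen by urokinase or tissue plasminogen activator, dissolves fibrin. Urokinase is a well known product of kidney tubules.

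Levels are FPKM, fragments scaled to gene length and to library size, so levels of different genes can be set side by side. FPKM sums were 711768 to 758514 in control samples and 609705 to 613885 in stone samples, and absolute depth is unknown. Pearson's r across genes was 0.979 to 0.991 within groups and 0.931 to 0.95 between them. Tubule genes marked the tissue as kidney in every sample: the 10 proximal tubule markers summed to 150800 to 181800 FPKM in control and 12170 to 17910 FPKM in stone samples, most of it in both groups from Kap, the kidney androgen-regulated protein gene. The loop of Henle gene Umod stood between 936 and 1749 FPKM. Fold changes and tests come from limma on log2(FPKM + 1) over the 12319 genes that averaged 1 FPKM or more, with the Benjamini-Hochberg adjustment and a threshold of 0.05. On this scale the median difference of all tested genes was 0.21. Scaling samples by the median of ratios moved that median to -0.01, and both values are given where they differ in outcome.

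All 10 genes were higher in stone kidneys. Of the 10, 10 rose and 0 fell (limma), against a background of 57.4% of tested genes called in either direction, 43.5% higher and 13.9% lower. Fgb and Procr averaged 0.593 and 0.94 FPKM in control samples and passed the filter of 1 FPKM only through their stone values. So did genes of several lists below, among them F13a1, Itgam, Serpina10, Masp1, Socs3, Serpina3n, Csf3r and several macrophage markers. Counts of list genes called higher include such genes. The stone and control values did not overlap for any of the 10, and 49.8% of tested genes had all stone values above all control values. The median difference of the 10 genes was 2.23 on the log2(FPKM + 1) scale. A difference of at least 1 was reached by 8 of them, against 7.32% of tested genes that were called higher with such a difference. After median-of-ratios scaling 9 of the 10 passed, against 22.5% of tested genes called higher, and the median of the 10 was 1.99. In whole tissue, more cells of a type and more RNA per cell cannot be told apart.

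**Figure D1:**
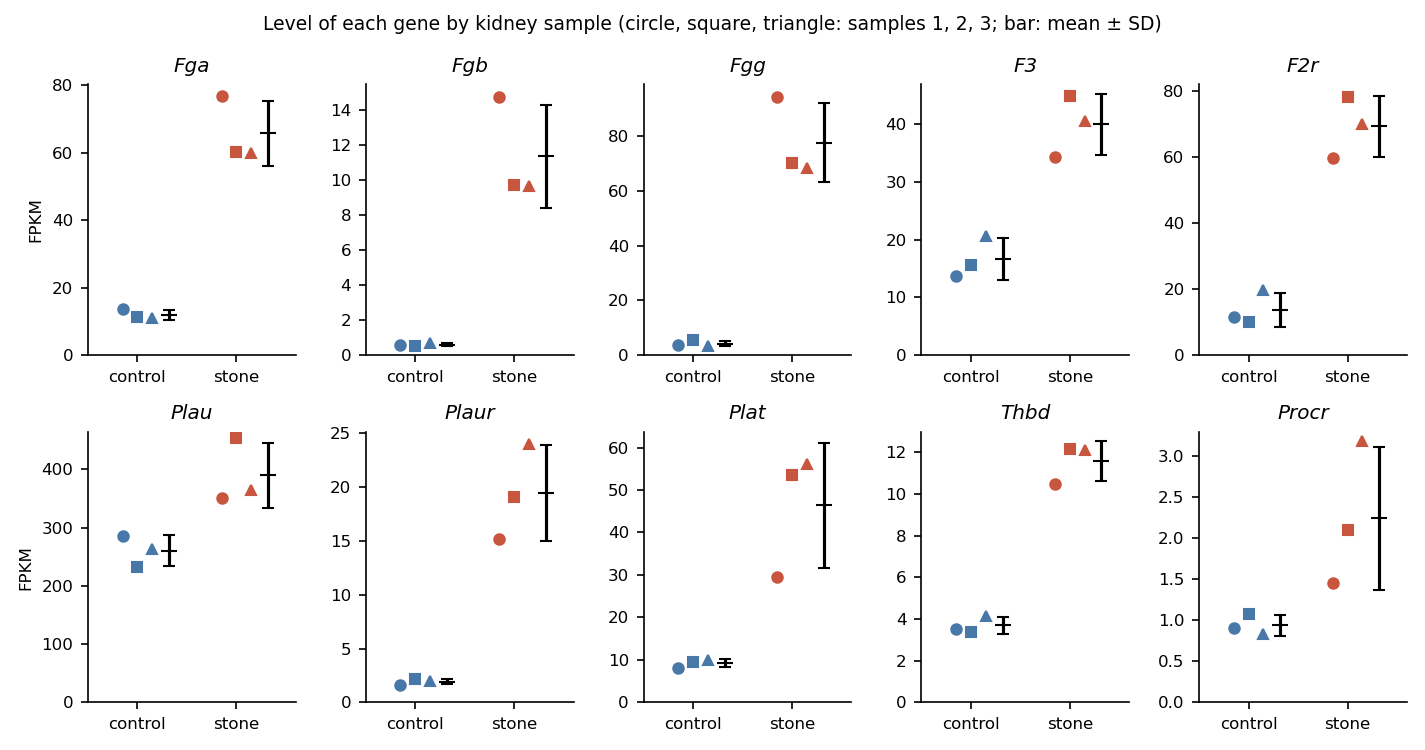
FPKM of the 10 genes in 3 control (blue) and 3 stone (red) samples, each panel on its own linear axis from 0, with the mean ± SD of each group as a black bar. No panel has a control value above a stone value, and Plau has by far the highest level and the closest groups.

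Fgg and Fgb had the largest differences of the 10 genes on the log2 scale, and Fga the next after Plaur. Fgg, the gamma chain gene, had control values of 3.82, 5.46 and 3.49 FPKM and stone values of 94.3, 70.0 and 68.4 FPKM, listed here and below in the order of samples 1 to 3. Every stone value was more than 10 times every control value. Means were 4.26 ± 1.05 and 77.6 ± 14.5 FPKM (SD, n = 3 each), an 18.2-fold ratio, and the log2 difference was 3.90, SE 0.171 (limma, adjusted p = 1.42e-05). Fgg ranked at position 10 of the 12319 tested genes by size of rise.

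Fgb, the beta chain gene, was the lowest of the chains in both groups. It stood at 0.59, 0.52 and 0.67 FPKM in control samples and at 14.8, 9.70 and 9.66 FPKM in stone samples. Means were 0.593 ± 0.0751 and 11.4 ± 2.93 FPKM (SD, n = 3 each), a 19.2-fold ratio, with a log2 difference of 2.93 and an SE of 0.162 (limma, adjusted p = 2.88e-05). The added 1 FPKM compresses the difference of a gene this low, and with 0.1 FPKM added it was 4.02. Fga, the alpha chain gene, was the highest chain in control kidneys, with 13.70, 11.32 and 10.99 FPKM, and reached 76.9, 60.3 and 59.9 FPKM in stone kidneys. Its means of 12.0 ± 1.48 and 65.7 ± 9.69 FPKM (SD, n = 3 each) differed 5.47-fold, with a log2 difference of 2.35 and an SE of 0.122 (limma, adjusted p = 2.13e-05). All 3 genes were highest in stone sample 1 and nearly equal in stone samples 2 and 3.

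The balance of the chains differed between groups. The summed FPKM of Fga, Fgb and Fgg was 18.1, 17.3 and 15.2 in control samples and 185.9, 139.9 and 138.0 in stone samples, a 9.17-fold ratio of means. Of this sum Fga made up 71.2 ± 5.24% in control and 42.6 ± 1.10% in stone kidneys (SD, n = 3 each). Fgg made up 25.2 ± 5.57% and 50.1 ± 0.566%, and Fgb 3.56 ± 0.755% and 7.29 ± 0.563% (SD, n = 3 each). The ratio of Fga to Fgb was 23.2, 21.8 and 16.4 in control samples and 5.21, 6.21 and 6.20 in stone samples. These groups do not overlap, and the exact permutation test (two-sided, 3 against 3) gave p = 0.1, the smallest it allows (0.133 adjusted over the 8 ratios tested, 6 of which are reported). The ratio of Fgg to Fgb overlapped between groups, at 6.47, 10.5 and 5.21 in control samples and 6.39, 7.21 and 7.08 in stone samples (exact permutation p = 0.9, adjusted p = 0.9). The ratio of Fgg to Fga, picked out after its values were seen, was 0.279, 0.482 and 0.318 in control samples and 1.23, 1.16 and 1.14 in stone samples.

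**Figure D2:**
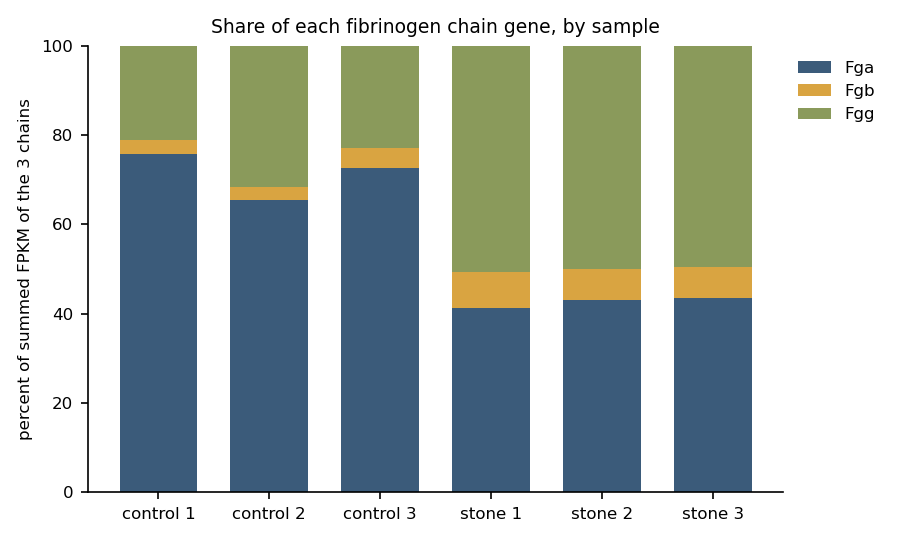
Percent of the summed FPKM of the fibrinogen chains that each gene holds, stacked to 100 for each of the 6 samples. Fga holds 65.4 to 75.7 percent in control samples and 41.4 to 43.4 percent in stone samples, and Fgg holds 49.6 to 50.7 percent in stone samples.

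The chain genes lie side by side within 42140 bases of chromosome 3 (GRCm38): Fgg at chr3:83007724-83015049 and Fga at chr3:83026076-83033627 on the plus strand, and Fgb at chr3:83040141-83049863 on the minus strand. Of the other protein-coding genes within 500 kilobases, Plrg1, a spliceosome gene next to Fgb, was the 1 at a testable level. Plrg1 measured 18.5, 19.6 and 17.5 FPKM in control samples and 20.0, 19.5 and 20.1 FPKM in stone samples and did not pass (limma, log2 difference 0.10, adjusted p = 0.215). With FPKM sums set equal it was called higher, at 0.36 (limma, adjusted p = 0.00138). Lrat, the lecithin retinol acyltransferase gene on the other side, was below the level for testing, at 0.47 to 0.61 FPKM in control and 0.75 to 1.02 FPKM in stone samples. Fgg shares 115 exon bases with Gm30097, an RNA gene on the opposite strand. The labels do not state whether counting used the strand, so part of the Fgg value could belong to that gene.

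Hepatocyte markers did not move as 1 group. Of 10 tested genes 0 rose and 4 fell (limma), against 43.5% and 13.9% of all tested genes, and 1 rose with equal FPKM sums or with array weights. The summed level of the 14 listed in the table ranged from 1833 to 2215 FPKM in control and from 1219 to 1353 FPKM in stone samples. Ttr and Cyp2e1, which the kidney also expresses, made up most of that sum. Alb, the albumin gene, measured 3.19, 4.17 and 4.59 FPKM in control samples and 1.85, 1.10 and 0.99 FPKM in stone samples. Cps1, a urea cycle gene of hepatocytes, was listed at 0 in all 6 samples, and Ahsg, the fetuin-A gene, was listed at 0 in all 3 control samples and did not exceed 0.23 FPKM in stone samples. Serpina1a and Serpina1b, alpha-1-antitrypsin genes, varied widely among stone samples. Serpina1a was 69.0, 72.3 and 81.4 FPKM in control samples and 54.1, 229.9 and 146 FPKM in stone samples (limma, adjusted p = 0.216), and Serpina1b was 12.8, 17.2 and 14.3 FPKM and 4.19, 40.1 and 20.9 FPKM (limma, adjusted p = 0.912). Both were lowest in stone sample 1, where the fibrinogen genes were highest, and without that sample both passed as higher (limma, adjusted p = 0.002 and 0.0225). These genes are near-identical copies, so the split of reads between them is uncertain. Plg and F2, the plasminogen and prothrombin genes, were close to 0: Plg was 0.18 to 0.30 FPKM in control and 0 to 0.05 FPKM in stone samples, and F2 was 0.21 to 0.54 and 0 to 0.08 FPKM.

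Most tested transcripts listed for the interleukin-6 and STAT3 response, the signal that raises fibrinogen in the liver, were higher in stone kidneys. Il6, the gene of interleukin-6 itself, was below the level for testing. It stood at 0 to 0.09 FPKM in control and 0.24 to 1.28 FPKM in stone samples. Of 17 tested genes of this list 14 rose and 1 fell (limma), or 82.4% against the background of 43.5% called higher. After median-of-ratios scaling 13 rose and 1 fell, against 22.5% and 26.2% of all tested genes. Of the 14, Lif, Serpina3n, Il6ra, Steap4 and Socs3 averaged 0.0967 to 0.73 FPKM in control samples. They passed the filter of 1 FPKM only through their stone values. The list's median log2 difference was 1.78. Stat3, the transcription factor gene, rose from 15.9, 16.3 and 16.8 FPKM to 50.7, 51.8 and 52.0 FPKM, and Socs3, its feedback inhibitor gene, from 0.49, 0.66 and 1.04 FPKM to 22.6, 27.3 and 43.4 FPKM. Osmr, the oncostatin M receptor gene, rose from 0.96 to 1.56 FPKM in control to 9.34 to 12.0 FPKM in stone samples. The acute phase genes Serpina3n and Cp rose by 4.38 and 3.56 on the log2 scale. Other acute phase genes did not follow: Hp, the haptoglobin gene, varied from 0.14 to 9.23 FPKM among control samples and did not pass (limma, adjusted p = 0.494), and Saa2 was listed at 0 in every sample. Lifr, the leukemia inhibitory factor receptor gene, fell by 0.47, a call lost when FPKM sums were made equal (limma, adjusted p = 0.0673). Whether this list and the fibrinogen genes are linked was not tested.

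The bases before the start of each chain gene are shown because the 3 genes moved together and share a short motif there. Sequences are from RefSeq (GRCm38.p6), which held the 250 bases before the start for 7 of the 10 genes. Capitals mark CTGGGA, the core of the interleukin-6 response element known from liver fibrinogen genes, searched on both strands. Fga is read on the plus strand at chr3:83025903-83026075, Fgb on the minus strand at chr3:83049864-83050113 and Fgg on the plus strand at chr3:83007474-83007723.
Fga: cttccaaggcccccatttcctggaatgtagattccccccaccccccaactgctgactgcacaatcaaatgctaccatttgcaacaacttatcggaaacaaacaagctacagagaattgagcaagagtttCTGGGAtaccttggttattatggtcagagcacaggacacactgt
Fgb: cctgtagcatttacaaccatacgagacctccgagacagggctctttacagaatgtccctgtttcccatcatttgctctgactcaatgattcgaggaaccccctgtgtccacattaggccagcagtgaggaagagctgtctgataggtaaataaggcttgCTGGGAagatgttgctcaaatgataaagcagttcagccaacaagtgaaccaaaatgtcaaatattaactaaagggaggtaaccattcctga
Fgg: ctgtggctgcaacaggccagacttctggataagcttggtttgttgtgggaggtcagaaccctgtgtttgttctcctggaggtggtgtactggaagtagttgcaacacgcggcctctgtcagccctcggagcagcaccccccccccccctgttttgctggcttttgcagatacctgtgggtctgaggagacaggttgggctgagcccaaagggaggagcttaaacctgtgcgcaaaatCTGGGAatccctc
The motif begins 121, 91 and 13 bases before the RefSeq start of Fga, Fgb and Fgg. It was in the window of all 3 chain genes and of F2r and Procr, and in 26.8% of the 27025 windows searched. The STAT palindrome TTCNNNGAA matched in Fga and Fgb (7.18% of all windows), and the partial site GTTAAT of the liver and kidney factor HNF1 matched in the same genes (6.52% of all windows). The GTTAAT match of Fga lies 43 to 38 bases before the RefSeq start, past the end of the Fga sequence printed here, which stops at the GENCODE start. These matches are descriptions of the letters and not evidence of binding.

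F3 encodes tissue factor, the membrane receptor that starts clotting, and lies at chr3:121723537-121735048 (GRCm38, plus strand). It measured 13.6, 15.7 and 20.6 FPKM in control samples and 34.3, 44.9 and 40.5 FPKM in stone samples, with means of 16.6 ± 3.58 and 39.9 ± 5.31 FPKM (SD, n = 3 each). The log2 difference was 1.23, SE 0.156 (limma, adjusted p = 0.000731). Tfpi, the gene of the inhibitor that blocks tissue factor, rose less, from 5.17, 5.23 and 7.29 FPKM to 10.1, 8.61 and 7.72 FPKM (limma, log2 difference 0.52, adjusted p = 0.0183). That call was lost under median-of-ratios scaling (limma, adjusted p = 0.137), after quantile normalization (0.303), and without control sample 1 (0.0636), control sample 2 (0.0631) or stone sample 1 (0.0512). The ratio of F3 to Tfpi was 2.64, 2.99 and 2.82 in control samples and 3.39, 5.22 and 5.25 in stone samples. The groups did not overlap, and the exact permutation p of 0.1 (adjusted p = 0.133) is the smallest for 3 against 3.

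F2r encodes PAR1, the main thrombin receptor of endothelium, fibroblasts and several epithelia, and lies at chr13:95601803-95618487 on the minus strand. It measured 11.6, 9.97 and 19.6 FPKM in control samples and 59.8, 78.0 and 70.1 FPKM in stone samples. Control sample 3 was well above the other control samples but below every stone sample. Means were 13.7 ± 5.17 and 69.3 ± 9.15 FPKM (SD, n = 3 each), with a log2 difference of 2.30 and an SE of 0.227 (limma, adjusted p = 0.000265). F2rl1, the gene of the related receptor PAR2 that trypsin-like proteases activate, rose from 9.11, 8.39 and 9.85 FPKM to 26.6, 31.3 and 33.2 FPKM (limma, log2 difference 1.63, adjusted p = 3.82e-05). The other receptor genes of the family, F2rl2 and F2rl3, stayed at or below 0.28 FPKM in every sample and were not tested.

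Fibroblast and mural markers were mostly higher in the same samples: 11 of 12 rose (limma), against 43.5% of all tested genes, and their summed level was 66.3 to 85.8 FPKM in control and 186 to 307 FPKM in stone samples. Macrophage and monocyte markers rose in 13 of 14, with sums of 93.5 to 99.1 and 277 to 649 FPKM. Injured tubule markers rose in 9 of 9, with sums of 832 to 967.5 and 9677 to 10050 FPKM. Which of these cells carried the F3, F2r, Plaur or Plat transcripts was not tested.

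F3, F2r and Plaur are shown with their upstream bases because each holds the AP-1 motif TGANTCA, marked in capitals (RefSeq, GRCm38.p6). F3 is read on the plus strand at chr3:121723287-121723536, Plaur on the plus strand at chr7:24462233-24462482 and F2r on the minus strand at chr13:95618488-95618716.
F3: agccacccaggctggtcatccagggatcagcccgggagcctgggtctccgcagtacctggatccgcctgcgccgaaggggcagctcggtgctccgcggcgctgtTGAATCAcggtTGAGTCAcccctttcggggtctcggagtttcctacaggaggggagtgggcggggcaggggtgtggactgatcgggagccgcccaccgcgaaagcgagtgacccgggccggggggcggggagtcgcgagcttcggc
Plaur: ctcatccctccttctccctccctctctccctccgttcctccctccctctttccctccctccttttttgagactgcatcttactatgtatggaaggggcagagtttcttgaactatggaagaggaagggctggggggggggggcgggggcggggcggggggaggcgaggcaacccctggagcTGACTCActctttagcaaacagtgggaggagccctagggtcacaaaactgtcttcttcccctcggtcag
F2r: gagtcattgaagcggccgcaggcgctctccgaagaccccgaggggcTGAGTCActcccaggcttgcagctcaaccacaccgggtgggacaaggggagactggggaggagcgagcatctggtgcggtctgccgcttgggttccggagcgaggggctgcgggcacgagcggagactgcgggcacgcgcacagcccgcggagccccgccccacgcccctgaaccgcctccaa
F3 holds 2 matches, which begin 146 and 135 bases before its start, and Plaur and F2r hold 1 each. Fgb and Procr also matched, so 5 of the 7 genes searched had the motif in their 250 bases, against 6.87% of all windows. The GC box GGGCGG was in F3, F2r and Plaur (32.9% of all windows). The EGR1 site GCGNGGGCG was in Plaur, where it overlaps GC boxes (4.65% of all windows). The kappaB consensus was in 0 of the 7 (7.01% of all windows), and the C/EBP core TTNNGNAA in 4 of the 7 (36.9%). Several motifs were searched, no enrichment was tested, and these matches too are not evidence of binding.

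Plau encodes urokinase and was the most abundant of the 10 genes in both groups (chr14:20836660-20843385, plus strand). It measured 285, 232 and 264 FPKM in control samples and 351, 454 and 365 FPKM in stone samples. The groups did not overlap, with means of 260.4 ± 26.6 and 389.8 ± 55.8 FPKM (SD, n = 3 each). The log2 difference of 0.58 with an SE of 0.119 passed (limma, adjusted p = 0.00564), but it was 0.32 under median-of-ratios scaling and did not pass (limma, adjusted p = 0.0568). Plau ranked at position 399 of all tested genes by level in control kidneys and at position 240 in stone kidneys.

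Plaur, the gene of the receptor that holds urokinase at the cell surface, rose far more from a low level (chr7:24462484-24475968, plus strand). It measured 1.65, 2.15 and 2.02 FPKM in control samples and 15.2, 19.1 and 24.0 FPKM in stone samples, a 10.03-fold ratio of means of 1.94 ± 0.259 and 19.4 ± 4.42 FPKM (SD, n = 3 each). The log2 difference was 2.78, SE 0.159 (limma, adjusted p = 3.36e-05). There were 172.9, 108.0 and 130.5 FPKM of Plau for each FPKM of Plaur in control samples and 23.1, 23.7 and 15.2 in stone samples. That ratio did not overlap between groups (exact permutation p = 0.1, adjusted p = 0.133).

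Plat encodes tissue plasminogen activator, the form that works on the fibrin surface (chr8:22757727-22782844, plus strand). It measured 8.11, 9.56 and 10 FPKM in control samples and 29.5, 53.5 and 56.2 FPKM in stone samples, with stone sample 1 well below the other stone samples. Means were 9.22 ± 0.989 and 46.4 ± 14.7 FPKM (SD, n = 3 each), with a log2 difference of 2.16 and an SE of 0.231 (limma, adjusted p = 0.000356). The ratio of Plat to Plau was 0.0284, 0.0412 and 0.0379 in control samples and 0.0842, 0.118 and 0.154 in stone samples. Urokinase transcripts thus remained the more abundant in all 6 samples, while the ratio did not overlap between groups (exact permutation p = 0.1, adjusted p = 0.133).

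Thbd encodes thrombomodulin, the endothelial cofactor that turns thrombin toward protein C (chr2:148404466-148408188, minus strand). It measured 3.54, 3.37 and 4.17 FPKM in control samples and 10.5, 12.1 and 12.1 FPKM in stone samples, the tightest stone values of the set. Means were 3.69 ± 0.421 and 11.6 ± 0.95 FPKM (SD, n = 3 each), with a log2 difference of 1.42 and an SE of 0.0971 (limma, adjusted p = 6.2e-05). Procr, the gene of the endothelial protein C receptor, was the least abundant of the 10 in stone kidneys (chr2:155751117-155755471, plus strand). Its values were 0.91, 1.08 and 0.83 FPKM in control samples and 1.45, 2.10 and 3.18 FPKM in stone samples. The log2 difference was 0.71, SE 0.197 (limma, adjusted p = 0.0183). This call was lost after quantile normalization (limma, 0.31, adjusted p = 0.155) and without control sample 1 (adjusted p = 0.0531) or control sample 3 (adjusted p = 0.053).

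Of 15 endothelial markers tested, 9 rose and 0 fell (limma), against 43.5% and 13.9% of all tested genes. Under median-of-ratios scaling 7 of them rose, against 22.5% of all tested genes. When FPKM sums were made equal 14 of them rose, as did 8440 of the 12319 tested genes. The summed level of these markers was 161, 145 and 235 FPKM in control samples and 260, 318 and 375 FPKM in stone samples. Their median log2 difference of 0.64 was below that of Thbd. Their part in the Thbd and Procr differences was not tested. The ratio of Thbd to F2r was 0.307, 0.338 and 0.213 in control samples and 0.175, 0.156 and 0.173 in stone samples, without overlap (exact permutation p = 0.1, adjusted p = 0.133). Vwf, the von Willebrand factor gene of endothelium and platelets, was 0.13 to 0.33 FPKM in control samples and 0.30, 0.49 and 5.54 FPKM in stone samples, so the value of stone sample 3 stood alone (limma, adjusted p = 0.194).

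**Figure D3:**
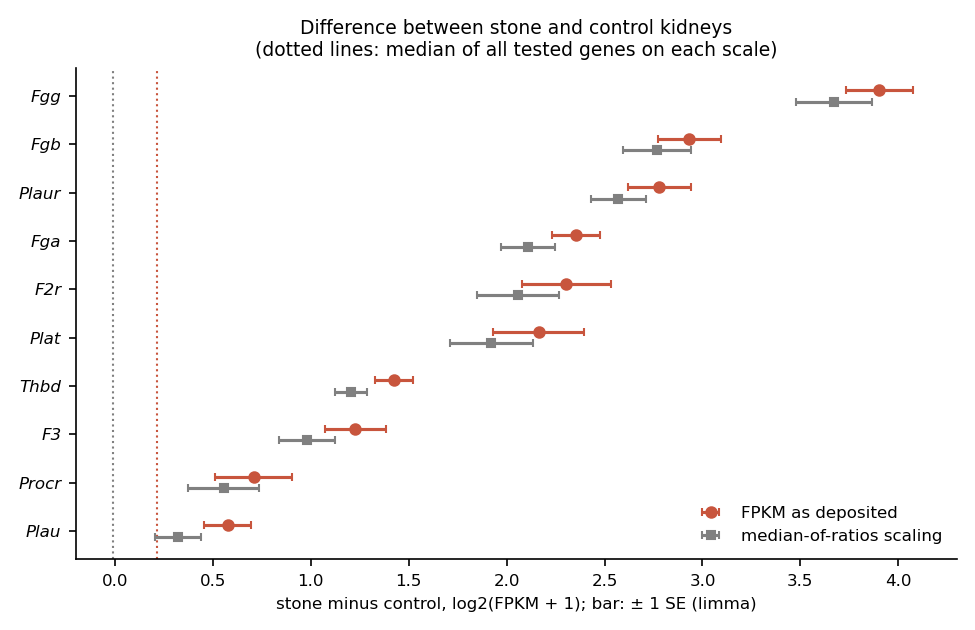
Stone minus control difference of each gene on the log2(FPKM + 1) scale with 1 SE on either side, from FPKM as deposited (red) and after median-of-ratios scaling (grey), with dotted lines at the median of all tested genes. Every gene lies to the right of both lines, Fgg farthest at 3.90, and Plau and Procr lie nearest.

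Proc, the protein C gene and the ligand of the Procr receptor, went the other way. It fell from 132.5, 118 and 123 FPKM to 57.2, 60.8 and 54.8 FPKM (limma, log2 difference -1.10, adjusted p = 4.34e-05). In both groups Proc was more abundant than Thbd and Procr. Pros1, the gene of its cofactor protein S, rose from 4.74, 4.69 and 5.66 FPKM to 15.6, 18.2 and 16.6 FPKM (limma, log2 difference 1.56, adjusted p = 3.65e-05).

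Across 19 tested genes of the wider coagulation list, 9 rose and 4 fell (limma), or 47.4% and 21.1%, near the backgrounds of 43.5% and 13.9%, and the list's median of 0.52 compares with 0.21 for all tested genes. After median-of-ratios scaling 7 rose and 6 fell, against 22.5% and 26.2% of all tested genes. Serpina10, the gene of the inhibitor of factor Xa that works with protein Z, rose most, by 3.34 on the log2 scale. Tgm2, a tissue transglutaminase gene, and Kng1, a kininogen gene, rose by 0.84 and 1.06. Reads of Kng1 can be shared with its close paralog Kng2, so its value is uncertain. Serpinc1, the antithrombin gene, fell by 0.88 from 1.30, 1.52 and 2.11 FPKM to 0.46, 0.35 and 0.48 FPKM. The subunit genes of factor XIII, which crosslinks fibrin, were picked out after their values were seen. F13a1, the catalytic subunit gene that macrophages express, rose from 0.04 to 0.31 FPKM in control to 1.05 to 4.14 FPKM in stone samples (limma, adjusted p = 0.00523). F13b, the carrier subunit gene, fell from 59.3, 68.0 and 79.9 FPKM to 51.5, 35.2 and 37.2 FPKM (limma, adjusted p = 0.00721).

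Of 14 tested genes of the fibrinolysis list 7 rose and 4 fell (limma), or 50% and 28.6%, against 43.5% and 13.9% of all tested genes, so the share that rose was near the background. The counts were the same under median-of-ratios scaling, where the backgrounds were 22.5% higher and 26.2% lower. On that scale the share that rose was above the background. S100a10 and Anxa2, which form a plasminogen-binding complex on the cell surface, rose by 1.16 and 2.03 on the log2 scale. Serpine2, a protease inhibitor gene that blocks thrombin and urokinase, rose by 1.88, and Lrp1, the gene of the receptor that clears activator and inhibitor complexes, by 1.46. Masp1, a lectin pathway protease gene listed here for its thrombin-like activity, rose by 2.23. Serpinf2, the gene of alpha-2-antiplasmin, fell by 1.98 on the log2 scale, from 241, 231 and 205 FPKM to 60.6, 58.1 and 51.0 FPKM (limma, adjusted p = 1.49e-05). Hrg, the histidine-rich glycoprotein gene, fell by 1.85.

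**Figure D4:**
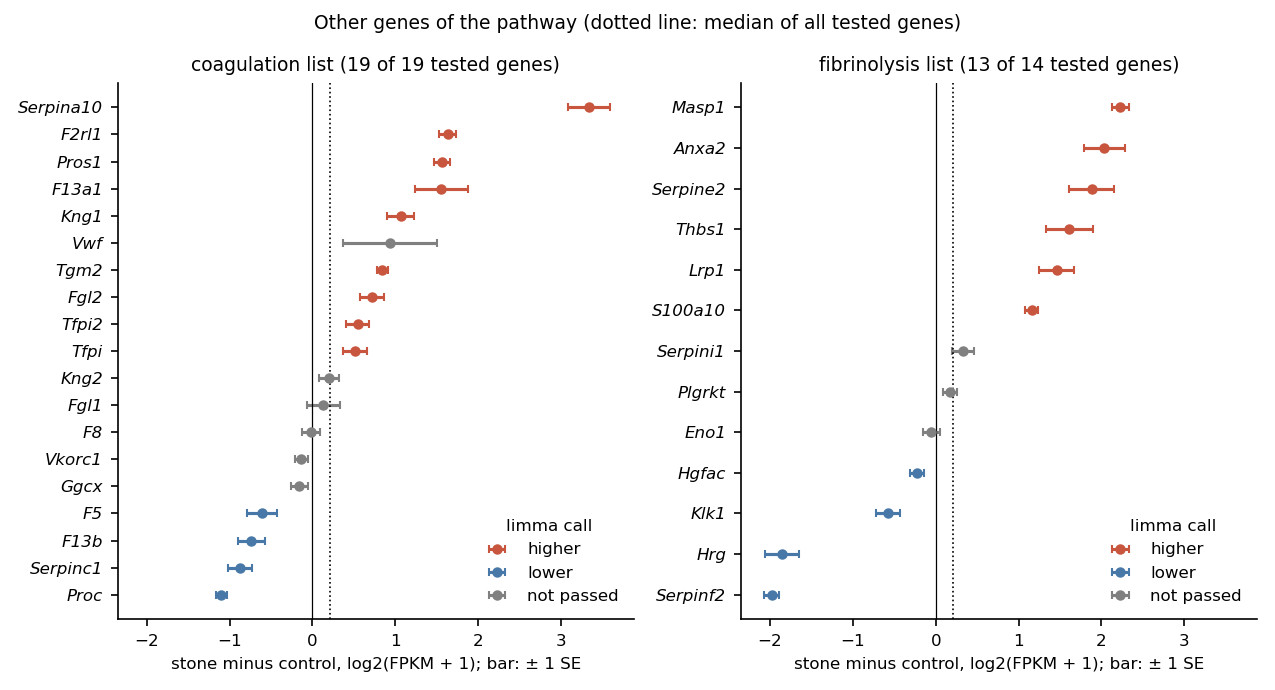
Stone minus control difference on the log2(FPKM + 1) scale, with 1 SE on either side, for the 19 tested genes of the coagulation list and 13 of the 14 of the fibrinolysis list, coloured by limma call. Serpina10 lies at 3.34 and Proc at -1.10 in the left panel, and Masp1 at 2.23 and Serpinf2 at -1.98 in the right panel.

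Genes of the receptors that bind fibrinogen were mostly higher. Of 9 tested 8 rose and 0 fell (limma), or 88.9%, both as deposited and after median-of-ratios scaling. The background called higher was 43.5% as deposited and 22.5% after that scaling. Icam1, an adhesion receptor gene of endothelium and injured tubules, rose from 8.83, 7.54 and 9.33 FPKM to 34.8, 33.3 and 34.8 FPKM. Itgav, Itgb1 and Itga5, genes of matrix-binding integrin subunits, rose by 0.77, 0.80 and 1.29 on the log2 scale. Itgam, the gene of the leukocyte integrin subunit CD11b, rose from 0.13 to 0.28 FPKM in control to 2.51 to 6.53 FPKM in stone samples. Itga2b, the platelet integrin gene, was 1.14 to 1.47 FPKM in control and 0.92 to 1.49 FPKM in stone samples (limma, adjusted p = 0.952). Of the 10 platelet and megakaryocyte markers 2 were tested, and Pf4, which macrophages can also express, was the 1 that rose.

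The stone samples differed among themselves in a way that separated the fibrinogen chains from the rest. Fga, Fgb and Fgg were each highest in stone sample 1, at 1.17, 1.30 and 1.21 times the mean of the 3 stone samples, while the other 7 genes were each lowest there. Plat and Procr stood at 0.636 and 0.646 times their stone means in that sample. Over all tested genes 26.1% were highest and 50% lowest in stone sample 1, so being lowest there was common. Summed macrophage and monocyte markers were also lowest in stone sample 1, at 277 FPKM against 649 and 431 FPKM, and so were fibroblast and mural markers, at 186 FPKM against 307 and 303 FPKM. Summed neutrophil and podocyte markers were highest there, as the fibrinogen genes were. Of 9 neutrophil markers 3 were tested, and all 3 rose (limma), against 43.5% of all tested genes. Csf3r, 1 of the 3, averaged 0.473 FPKM in control samples and passed the filter only through its stone values. The neutrophil list summed to 28.6, 20.1 and 19.1 FPKM in stone samples and 2.04 to 5.08 FPKM in control samples. Of the tested neutrophil markers only S100a8 was highest in stone sample 1, at 18.0, 9.58 and 7.21 FPKM. S100a9 measured 8.13, 7.83 and 9.80 FPKM in stone samples, and Csf3r 1.74, 1.98 and 1.64 FPKM. The defining neutrophil genes Ly6g, Mpo and Elane did not exceed 0.11 FPKM in any sample, and the part of these lists was not tested. The podocyte list summed to 166, 149.5 and 154 FPKM in stone samples. Of the proximal tubule markers, all but Aqp1 and Kap were also highest in stone sample 1. Among them, Slc34a1 measured 1947, 1529 and 1508 FPKM in stone samples and Slc22a6 165, 144 and 142 FPKM. Aqp1 and Kap were lowest there, and Kap made up most of the sum of that list. Without stone sample 1 all 10 genes were still called higher (limma). The part of these cell types in the spread was not tested.

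**Figure D5:**
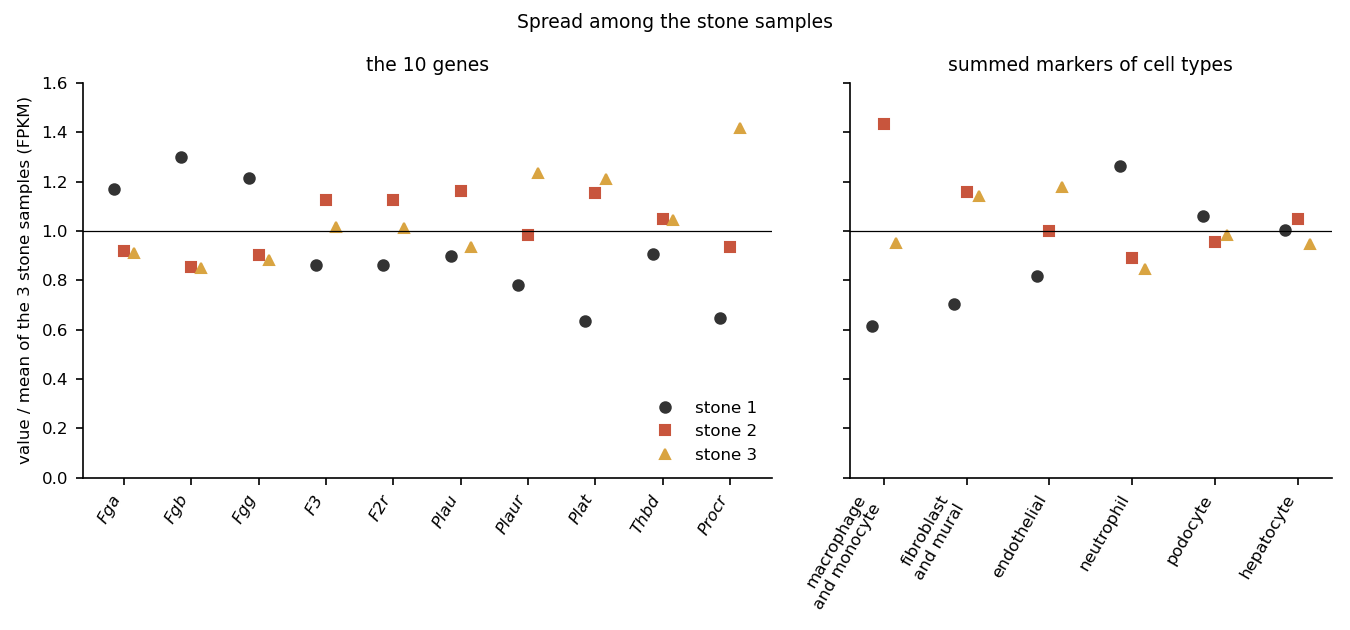
Value of each gene (left) and of summed cell type markers (right) in each stone sample divided by the mean of the 3 stone samples, on a linear axis from 0. Stone sample 1 (circle) lies above 1 for Fga, Fgb and Fgg, below 1 for the other 7 genes, and at 0.613 for the summed macrophage and monocyte markers.

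Patterns across the 6 samples were shared with many genes, since the difference between the groups dominates any correlation over 3 and 3 samples. On log2(FPKM + 1) values 1617 tested genes had a Pearson r of at least 0.95 with Fgg, 2634 with Thbd and 330 with Procr. The genes most like Fgg were Scg5 (r = 0.9999), Kcnip2 (r = 0.9993) and Chil3 (r = 0.9989). Fga was most like Alas1 (r = 0.9998), the gene of the rate-limiting enzyme of heme synthesis, and Fgb most like Mfsd12 (r = 0.9997). Among the 10 genes, r was 0.992 to 0.996 between fibrinogen chains and 0.74 between Plau and Procr, the lowest pair.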

How the data were processed

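Total RNA of 6 kidney samples, 3 control and 3 stone, was sequenced on DNA nanoballs after a dUTP second strand, per the labels' protocols. The authors deposited 1 FPKM column per sample with 2 decimals. Per the submitters' processing notes, HISAT2 2.0.4 and the build GRCm38.p6 were used. For quantifier, annotation and strand the setting was not given in the sources used here. 0 columns belonged to other samples. FPKM hold no counts, so depth is unknown and no counting interval can be given. From the low values of 53 genes, the FPKM of 1 fragment relative to the other samples was -0.056 to 0.106 on the log2 scale. Genes entered only if their values above 0 were close to each other, so this range cannot show whether relative depth differed.

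The 12319 genes that averaged 1 FPKM or more were fitted on log2(FPKM + 1) with limma 3.58.1 in R 4.3.3 (eBayes with a trend, two-sided), and p was adjusted by Benjamini-Hochberg over all of them. The fold in FPKM is a ratio of group means. The script was tested on simulated data. Ratios between genes were tested by exact permutation, which cannot go below p = 0.1. The alternatives were another pseudocount, other filters, 4 scalings, array weights, a replicate block and leaving out each sample.

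The members, lists and tests were chosen with earlier results of these data known. Named genes are the 10 members, 6 direct partners, and up to 5 called genes of each list in its main direction and 2 in the other by smallest p. 1 partner gene and its 2 ratios are not reported here. Of marker lists, sums and defining markers at or near 0 are given. Alb, Ttr, Cyp2e1, Serpina1a, Serpina1b, Kap, Umod, Hp, Saa2, Itga2b, Pf4, F2rl2, F2rl3, F13a1, F13b and the neighbours of the fibrinogen genes were added after their values were seen. The same holds for S100a8, S100a9, Csf3r, Slc34a1, Slc22a6, Aqp1, Il6, Il6ra, Lif and Steap4. Gene spans are from GENCODE M21 (GRCm38) and upstream bases from RefSeq (GRCm38.p6). Motifs were searched in the 250 bases before the RefSeq start. Printed sequences stop earlier where the GENCODE start lies upstream of it. For likeness, the 3 genes of highest r were taken, of which the closest are named.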

Additional observations from a re-analysis of the deposited data

How the results depend on the processing

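The 10 genes were called higher in every alternative that tested them, except Plau after median-of-ratios scaling and Procr with quantile normalization or when control sample 1 or 3 was left out. Leaving out samples gave 9 to 10 called higher, and 4265 to 5242 of all tested genes. Procr was below the filter of 5 FPKM. Over all tested genes, 5356 rose and 1711 fell as deposited, 2776 and 3222 after median-of-ratios scaling, 2744 and 3138 after quantile normalization, and 8440 and 797 with equal FPKM sums. Of the coagulation list 2 fell with the filter of 5 FPKM instead of 4. Of the fibrinolysis list 2 fell instead of 4 with that filter, with equal FPKM sums and without stone sample 2, and leaving out samples gave 2 to 4. The log2 ratio of Fgg to Fgb differed by -0.04 between groups and by 0.14 after adding 0.1 FPKM to both. Plrg1 went from 0.10 to -0.15 after median-of-ratios scaling and -0.10 after quantile normalization. Fewer genes are tested under the stricter filter, and the cause of the other changes was not tested.

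With the filter of 5 FPKM, fibrinogen receptors called higher went from 8 to 4 and macrophage markers from 13 to 7. The labels number the samples 1 to 3 in both groups, and deviations of same-numbered samples correlated at 0.0075, -0.22 and -0.04, so the numbers were not taken to pair the samples. With the replicate block 10 of the 10 genes were called higher and 0 lower, and 4861 of all tested genes were higher and 1517 lower. The ratio of Fgg to Fga was added after its values were seen.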
